A study of Mus musculus with 6 samples.

Results

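The enzymes that write, copy and remove DNA methylation were followed in ovaries of 1-day-old mice in which Hnrnpl was targeted in germ cells. The members were chosen by symbol: the rows of the gene table named Dnmt1, Dnmt3a, Dnmt3b, Dnmt3l, Uhrf1, Tet1, Tet2 and Tet3. All 8 were found among the 25164 genes listed. Whole ovaries of C57BL/6 mice at day 1 gave 3 libraries from hnRNPL flox/flox;Stra8-cre animals (cKO) and 3 from wild type animals (WT). HNRNPL is a nuclear RNA-binding protein known for its control of alternative splicing. Stra8-cre expresses Cre recombinase in germ cells, so that the somatic cells of the ovary keep the gene. The labels call the controls wild type and do not say whether they carry floxed alleles or Cre. They also mention a hormone challenge before the ovaries were taken, without naming the hormone. Libraries were made from amplified cDNA. The labels do not tell whether replicate libraries stem from different animals, so the p-values measure the spread between these libraries, which may be technical.

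In mammals a methyl group is placed on cytosine next to guanine (CpG). DNMT3A and DNMT3B methylate DNA that carried no mark, with DNMT3L as a cofactor that has no catalytic activity of its own. DNMT1 copies the mark to the new strand after replication, and UHRF1 recognises hemimethylated CpG and recruits DNMT1 to it. TET1, TET2 and TET3 oxidise 5-methylcytosine, after which the base can be replaced by base excision repair or diluted by replication. In the mouse, female germ cells are erased of most methylation before birth. Oocytes regain it as they grow after birth, through DNMT3A and DNMT3L, and TET3 acts on the genome of the zygote. The libraries measure transcripts and not methylation.

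The start regions of Uhrf1, Dnmt1 and Tet2, the members with the smallest p-values below, are shown first, because methylation acts on CpG and these enzymes' own genes differ widely in it. Each run is the strand of the gene, 5′ to 3′, from 250 bases before to 50 bases after a transcript start given by RefSeq (GRCm38.p6), and capitals mark every CpG.
Uhrf1, chr17:56304063-56304362, plus strand: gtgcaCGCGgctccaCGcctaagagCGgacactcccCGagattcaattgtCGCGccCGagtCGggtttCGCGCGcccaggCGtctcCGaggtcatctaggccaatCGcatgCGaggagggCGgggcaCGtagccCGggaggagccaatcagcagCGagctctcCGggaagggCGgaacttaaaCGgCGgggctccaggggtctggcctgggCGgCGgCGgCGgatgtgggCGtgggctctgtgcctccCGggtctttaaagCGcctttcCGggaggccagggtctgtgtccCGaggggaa
Dnmt1, inner start, chr9:20952574-20952873, minus strand: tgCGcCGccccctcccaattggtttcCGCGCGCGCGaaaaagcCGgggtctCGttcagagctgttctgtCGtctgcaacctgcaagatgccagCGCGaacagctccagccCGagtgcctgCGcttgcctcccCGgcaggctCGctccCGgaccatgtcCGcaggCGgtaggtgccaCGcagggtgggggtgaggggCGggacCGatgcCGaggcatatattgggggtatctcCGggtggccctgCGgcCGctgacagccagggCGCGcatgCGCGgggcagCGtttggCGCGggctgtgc
Dnmt1, outer start, chr9:20959839-20960138, minus strand: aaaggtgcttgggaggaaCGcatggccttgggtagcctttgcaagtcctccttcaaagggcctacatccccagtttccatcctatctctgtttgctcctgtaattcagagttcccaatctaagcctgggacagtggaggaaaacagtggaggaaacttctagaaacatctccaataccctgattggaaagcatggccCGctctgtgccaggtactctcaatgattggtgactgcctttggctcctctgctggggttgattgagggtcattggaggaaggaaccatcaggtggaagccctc
Tet2, chr3:133544341-133544640, minus strand: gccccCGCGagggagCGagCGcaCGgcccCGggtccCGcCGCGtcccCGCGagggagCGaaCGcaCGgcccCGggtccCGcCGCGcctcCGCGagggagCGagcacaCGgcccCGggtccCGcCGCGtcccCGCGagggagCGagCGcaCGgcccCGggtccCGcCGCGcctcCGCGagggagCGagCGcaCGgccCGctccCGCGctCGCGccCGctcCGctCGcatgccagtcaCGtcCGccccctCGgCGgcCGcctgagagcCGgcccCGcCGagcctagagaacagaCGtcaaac

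The Tet2 window holds 57 CpG, more than 99.8% of the 32851 windows of the same length in the RefSeq table, whose median is 7. The Uhrf1 window and the inner Dnmt1 window hold 33 each, and the outer Dnmt1 window holds 2. A further Uhrf1 window, at chr17:56303087-56303386, and a further Dnmt1 window, at chr9:20952930-20953229, hold 12 each. Of the other members, Dnmt3a had 18 to 47 CpG in its 3 windows, Dnmt3b 30, Tet3 22, Tet1 17 and Dnmt3l 3 to 6 in its 3 windows. E2F factors drive genes of DNA replication, and 4 words of their sites were searched on both strands: TTTCCCGC, TTTGGCGC, TTTCGCGC and TTTGCCGC. The word TTTCGCGC lies in the printed Uhrf1 window, 185 bases before the start. The inner Dnmt1 window holds it on the opposite strand and TTTGGCGC after the start. No other window of the members held any of the words, which occur in 2.26% of all windows and in 5.15% of the 8701 windows with at least 20 CpG. A match is a description of the letters only, and a gene-level value does not tell which start was used.

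Levels are in FPKM, which counts fragments per kilobase of transcript and scales them to the fragments mapped in a library. Estimated depth ran from 7200000 to 12200000 fragments in cKO and from 11100000 to 14300000 fragments in WT. The shallowest library, cKO replicate 1, stood apart: its FPKM values add up to 335667, whereas the other libraries reach between 223845 and 246121. Its short transcripts were high, by a median of 0.35 (log2) above the gene mean in the shortest sixth of genes and by 0.061 in the longest sixth. For this reason values are also given after median-of-ratios scaling, which brings all libraries to a common typical level. The median log2 difference over every tested gene was 0.077 as deposited and 0.00035 after this scaling. Hnrnpl itself stood at 100.5, 81.5 and 85.2 FPKM in cKO and at 104.1, 93.8 and 101.9 FPKM in WT, and the groups overlapped. Its log2 difference was -0.17 (SE 0.13), with a limma adjusted p of 0.571. Scaled values ran from 84.2 to 87.5 in cKO and from 95.4 to 107.4 in WT and did not overlap, with a log2 difference of -0.26 (95% interval -0.44 to -0.070) that did not pass (limma adjusted p = 0.150). Gene-level FPKM does not separate the floxed exons, and somatic cells keep Hnrnpl, so that this is a weak check of the labels. In whole ovaries, fewer cells of a type and less RNA per cell cannot be told apart.

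No member changed by the test used, limma on log2(FPKM + 1) with Benjamini-Hochberg adjustment over 12442 genes that averaged at least 1 FPKM. Of the 8 members 7 were tested and 0 had an adjusted p under 0.05, as had 0.121% of all tested genes, 0.0482% higher and 0.0723% lower in cKO. Tet2 was the 1 member with an unadjusted p under 0.05, a mark that 14.2% of all tested genes reached. It was also the 1 member whose groups did not overlap, with cKO below WT, as in 7.03% of all genes (22.6% in either direction). The log2 fold change was negative for 5 of the 7, against 34.8% of all genes, and its median was -0.12, against 0.077. After median-of-ratios scaling again 0 members had an adjusted p under 0.05, against 1.29% of all genes, and 6 of 7 differences were negative, against 50%. Scaled groups did not overlap, with cKO below WT, for Dnmt1, Uhrf1 and Tet2, which makes 3 of 7, against 13% of all genes. At the depths estimated, the thinnest support of the tested members was in cKO replicate 1, with about 85.2 fragments for Dnmt3b and about 268 for Tet1. In that library Tet2 had about 548, Uhrf1 about 646 and Dnmt1 about 833.

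**Figure D1:**
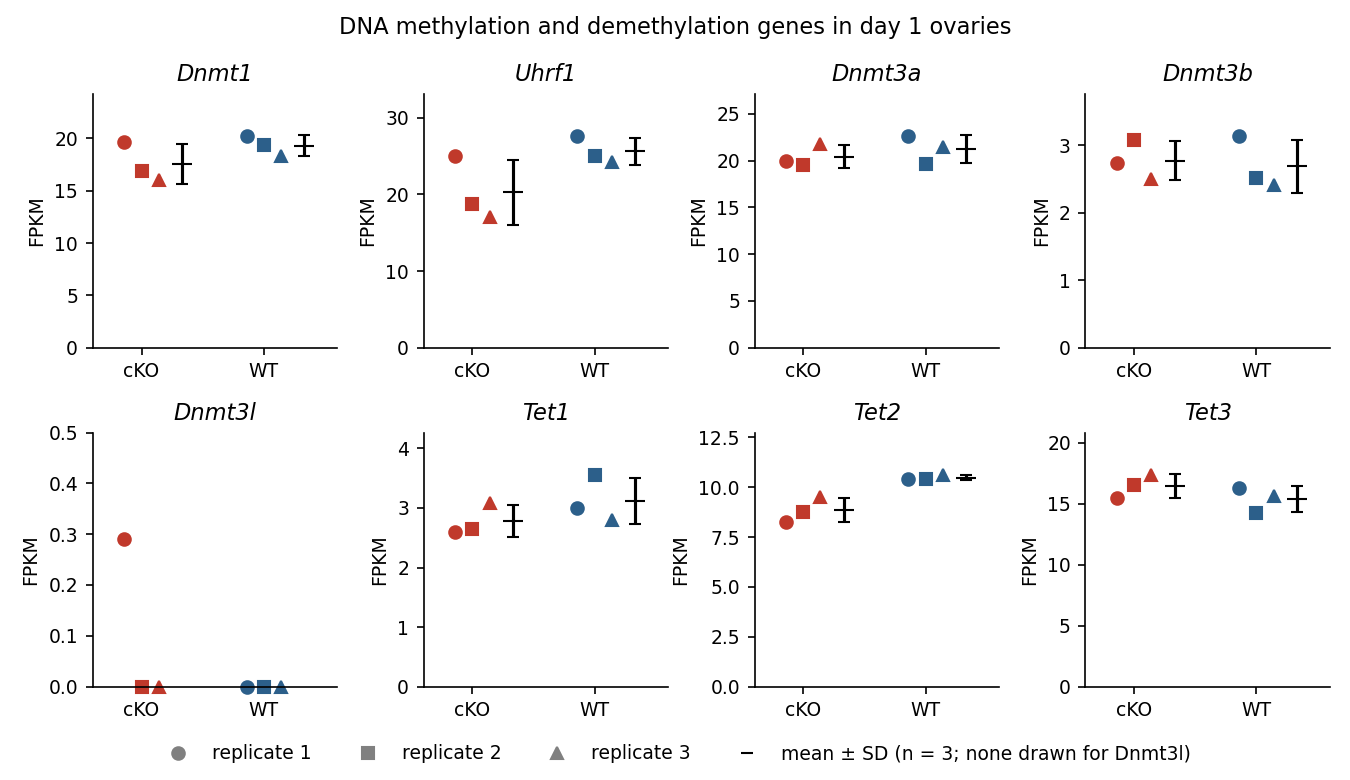
FPKM of the 8 members in each library, with cKO left of WT in every panel, 1 symbol per replicate number, and bars for mean ± SD (n = 3) except for Dnmt3l. Tet2 is the member whose groups do not overlap, Uhrf1 of cKO replicate 1 lies among the WT values at 25.01 FPKM, and Dnmt3l is listed at 0 in 5 of 6 libraries.

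Maintenance of methylation rests on Uhrf1 and Dnmt1. Uhrf1, on chromosome 17 from 56303321 to 56323486 (plus strand; gene positions are GENCODE M21 on GRCm38), had 25.01, 18.8 and 17.0 FPKM in the cKO libraries and 27.6, 25.1 and 24.2 FPKM in the WT libraries. cKO replicates 2 and 3 lay below every WT library, and cKO replicate 1 lay between the lower 2 of them. The mean was 20.3 ± 4.20 FPKM in cKO and 25.7 ± 1.77 FPKM in WT (SD, n = 3 each), a ratio of 0.790. On the log2 scale the difference was -0.34 (SE 0.15, 95% interval -0.69 to 0.0043) and did not pass (limma adjusted p = 0.358). An exact permutation test, two-sided over the 6 libraries, gave p = 0.2, where 0.1 is the smallest that 3 against 3 libraries allow.

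The Uhrf1 result depended on the scaling. Scaled by median of ratios, Uhrf1 stood at 21.3, 19.4 and 17.5 in cKO and 28.0, 25.5 and 25.5 in WT, so that every cKO library lay below every WT library. The log2 difference was then -0.43 (95% interval -0.63 to -0.22), and still missed the threshold (limma adjusted p = 0.0666). It passed after quantile normalization (-0.46, limma adjusted p = 0.0380) and after rescaling to TPM (-0.56, limma adjusted p = 0.0412). TPM rescaling moved the median of all genes by -0.19. Over all 16 alternatives the log2 difference was negative, from -0.56 to -0.23, with limma adjusted p from 0.0380 to 0.652. Of these, the filters, the fit without an intensity trend and the block by replicate number can move only its p, so its sign there was fixed.

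Uhrf1 is known to be abundant in dividing cells, and markers of dividing cells were set beside it. Of 10 such genes, all tested, 0 passed, and 6 had a negative log2 fold change (8 after scaling). Their summed FPKM ran from 110.5 to 168.5 in cKO and from 133.2 to 144.9 in WT. After scaling the sums ran from 113.5 to 143.3 in cKO and from 140.3 to 146.6 in WT. Mcm6 and Mcm2, subunits of the replicative helicase and the most abundant of the 10, had log2 fold changes of -0.025 and 0.25. Mki67, the proliferation marker, was named after its values were seen. It had 13.3, 11.6 and 10.9 FPKM in cKO and 16.9, 18.1 and 15.9 FPKM in WT, a log2 fold change of -0.47 (limma adjusted p = 0.148, and 0.02 after median-of-ratios scaling). The part of dividing cells in the Uhrf1 values was not tested.

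Dnmt1, on chromosome 9 from 20907209 to 20959888 (minus strand), had 19.7, 16.9 and 16.0 FPKM in cKO and 20.2, 19.4 and 18.3 FPKM in WT. As for Uhrf1, cKO replicates 2 and 3 lay below all WT libraries, and cKO replicate 1 lay among them. The mean was 17.5 ± 1.92 FPKM in cKO and 19.3 ± 0.969 FPKM in WT (SD, n = 3 each), with a log2 difference of -0.14 (SE 0.11, 95% interval -0.39 to 0.12, limma adjusted p = 0.577). Leaving out cKO replicate 1 gave -0.22, and leaving out cKO replicate 3 gave -0.077. Scaled Dnmt1 stood at 16.8, 17.5 and 16.5 in cKO and 20.5, 19.7 and 19.3 in WT. These groups no longer overlapped, and the log2 difference of -0.22 (95% interval -0.38 to -0.059) did not pass (limma adjusted p = 0.151). The ratio of Uhrf1 to Dnmt1 within a library, which no scaling by library can move, was 1.27, 1.11 and 1.06 in cKO and 1.37, 1.29 and 1.32 in WT.

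Of the de novo enzymes, Dnmt3a was the abundant one. It lies on chromosome 12 from 3806007 to 3914443 (plus strand) and had 19.9, 19.6 and 21.8 FPKM in cKO and 22.6, 19.6 and 21.5 FPKM in WT. The groups overlapped almost fully. The mean was 20.4 ± 1.20 FPKM in cKO and 21.2 ± 1.53 FPKM in WT (SD, n = 3 each), and the log2 difference was -0.053 (95% interval -0.29 to 0.19, limma adjusted p = 0.825). The interval holds the differences compatible with these values and is not a limit of detection. Larger differences of other genes, such as 0.49 for Kdm1b, did not pass either. Dnmt3a shares 133 exonic bases, 0.80% of its own, with the antisense gene Dnmt3aos, and whether counting used the strand is not stated.

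Dnmt3b, on chromosome 2 from 153649450 to 153687730 (plus strand), had 2.74, 3.07 and 2.49 FPKM in cKO and 3.14, 2.51 and 2.42 FPKM in WT. Both groups covered much the same range. The mean was 2.77 ± 0.288 FPKM in cKO and 2.69 ± 0.391 FPKM in WT (SD, n = 3 each), with a log2 difference of 0.033 (95% interval -0.26 to 0.33, limma adjusted p = 0.918). The sign turned to -0.030 with median-of-ratios scaling. Dnmt3c, the rodent copy of Dnmt3b that acts in male germ cells, was looked for under that symbol and is not among the genes listed. Reads of such near copies can be split between them.

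Dnmt3l, on chromosome 10 from 78041947 to 78063622 (plus strand), was listed at 0.290, 0 and 0 FPKM in cKO and at 0 in all WT libraries. The value in cKO replicate 1 stands for an estimated 3.80 fragments, in the shallowest library. It did not pass the filter and was not tested, and a listed 0 can also be a failed estimate. The cofactor was thus near the limit of detection on day 1 in either genotype, and no difference was detectable at this depth. Markers of oocyte growth went both ways: of 10, 9 were tested, 5 were positive and 4 negative. The most abundant were Sohlh1, a transcription factor of early oocytes (log2 difference 0.92), and Nlrp5, a maternal gene (0.24). The gene that passed was Zp3, a zona pellucida gene, lower in cKO (-1.51, limma adjusted p = 0.0437). That call was lost without cKO replicate 2, WT replicate 1 or WT replicate 2 (limma adjusted p = 0.136, 0.150 and 0.150). It was also lost without a filter, without an intensity trend and with the replicate number as a block (limma adjusted p = 0.106, 0.0540 and 0.0617). After scaling Sohlh1 passed as higher in cKO (limma adjusted p = 0.0411), and Gdf9, an oocyte growth factor, and Zp3 passed as lower (limma adjusted p = 0.0390 and 0.0132). The markers' summed FPKM ran from 84.1 to 153.0 in cKO and from 84.2 to 105.3 in WT. Dnmt3l shares 67 exonic bases, 2.24% of its own, with Aire on the opposite strand.

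The TET enzymes stood at unlike levels, with Tet3 highest and Tet1 lowest in every library. Tet2, on chromosome 3 from 133463679 to 133545139 (minus strand), had 8.28, 8.76 and 9.49 FPKM in cKO and 10.4, 10.4 and 10.6 FPKM in WT. All cKO libraries lay below all WT libraries, which were close to each other. The mean was 8.85 ± 0.608 FPKM in cKO and 10.5 ± 0.120 FPKM in WT (SD, n = 3 each), a ratio of 0.844. The log2 difference of -0.22 (SE 0.092, 95% interval -0.44 to -0.012) did not pass the adjusted threshold (limma adjusted p = 0.334), and the exact permutation test gave its smallest p, 0.1. It was negative in all 16 alternatives, from -0.44 to -0.18, with limma adjusted p from 0.160 to 0.659. Changing the filter, the intensity trend or the block by replicate number cannot move this difference, so its sign there was fixed. Tet2 shares 43 exonic bases, 0.25% of its own, with a predicted gene on the opposite strand.

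Markers of stroma, endothelium, surface epithelium and blood cells were set beside Tet2. All 8 stromal markers had a negative log2 fold change, with a median of -0.32, and 0 passed the test. Their summed FPKM ran from 767 to 841 in cKO and from 996 to 1043 in WT, with the collagen genes Col3a1 (-0.34) and Col1a1 (-0.39) the most abundant. All 7 endothelial markers were negative too, with a median of -0.36, and 0 passed. Their sums ran from 62.2 to 76.7 in cKO and from 76.9 to 96.7 in WT, with Cdh5 (-0.36) and Kdr (-0.33) the most abundant. Macrophage and leukocyte markers, of which 4 of 6 were tested, had sums that overlapped, at 11.6 to 15.5 in cKO and 12.2 to 15.2 in WT, with Lyz2 (0.28) and Cd68 (0.015) the most abundant. All 7 markers of the surface epithelium were negative, with a median of -0.57. The groups of 5 did not overlap, with cKO below WT, against 7.03% of all tested genes. Their sums ran from 138.0 to 216.5 in cKO and from 225.5 to 248.7 in WT, with the keratins Krt18 (-0.34) and Krt19 (-0.57) the most abundant. Upk1b, a uroplakin, was the 1 that passed (-1.47, limma adjusted p = 0.0428), and after scaling 3 passed as lower in cKO, Upk1b, Upk3b and Krt19. Over all 12442 tested genes, 9 passed as lower in cKO as deposited and 66 after scaling. The Upk1b call was lost without cKO replicate 2 or any single WT library (limma adjusted p from 0.0698 to 0.148). It was also lost without a filter, without an intensity trend and with the replicate number as a block (limma adjusted p = 0.106, 0.0540 and 0.0539). Of 6 erythroid markers 5 were tested, 0 passed and 4 were negative, with sums of 463 to 534 in cKO and 772 to 836 in WT. The most abundant were the globin genes Hbb-bt (-0.55) and Hba-a1 (-0.35), which share reads with near copies. The part of these cells in the Tet2 values was not tested.

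Tet3, on chromosome 6 from 83362373 to 83459084 (minus strand), had 15.5, 16.6 and 17.4 FPKM in cKO and 16.3, 14.2 and 15.7 FPKM in WT. The groups overlapped, with a mean of 16.5 ± 0.953 FPKM in cKO and 15.4 ± 1.08 FPKM in WT (SD, n = 3 each). The log2 difference was 0.091 (95% interval -0.14 to 0.32, limma adjusted p = 0.690), 0.0090 after median-of-ratios scaling and negative after quantile normalization and TPM rescaling. Tet1, on chromosome 10 from 62804570 to 62908996 (minus strand), had 2.59, 2.65 and 3.09 FPKM in cKO and 3.004, 3.56 and 2.79 FPKM in WT. These groups overlapped as well, at 2.78 ± 0.269 FPKM in cKO and 3.12 ± 0.394 FPKM in WT (SD, n = 3 each), with a log2 difference of -0.12 (95% interval -0.40 to 0.16, limma adjusted p = 0.656). It was -0.047 without WT replicate 2 and -0.34 with TPM rescaling.

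**Figure D2:**
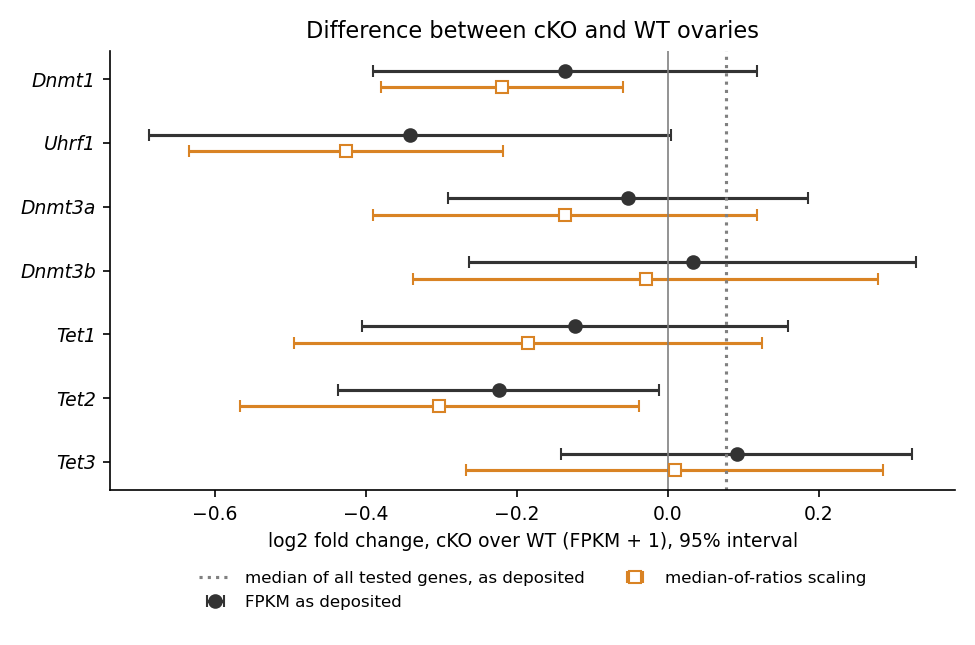
Log2 difference of cKO against WT with its 95% interval for the 7 tested members, from FPKM as deposited and after median-of-ratios scaling. Uhrf1 and Tet2 lie farthest to the left, at -0.34 and -0.22 as deposited, and no member had an adjusted p under 0.05 on either scale.

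The make-up of the TET transcripts was compared within each library, where scaling has no effect. Tet3 made up 58.7%, 59.2% and 58.0% of the summed TET FPKM in cKO and 54.9%, 50.4% and 53.9% in WT. Tet2 made up 31.4%, 31.3% and 31.7% in cKO and 35.0%, 37.0% and 36.5% in WT. The groups did not overlap for either share, which move against each other because shares sum to a whole. Tet1 held 9.84%, 9.48% and 10.3% in cKO and 10.1%, 12.6% and 9.60% in WT, and these groups overlapped.

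The ratio of Tet3 to Tet2 was 1.87, 1.89 and 1.83 in cKO and 1.57, 1.36 and 1.48 in WT. The mean ratio was 1.27 times as large in cKO as in WT, and 1.22 to 1.32 times over the alternatives that change it. Such a gap is common in these libraries. Of the 21 pairs among the 7 tested members, 5 had ratios whose groups did not overlap, which is 23.8%, against 25.5% of all pairs of tested genes. The 5 pairs were Dnmt1 with Uhrf1, Dnmt3a with Tet2, Dnmt3a with Tet3, Tet1 with Tet3 and Tet2 with Tet3. The ratio of Dnmt3a to Tet3 was 1.29, 1.18 and 1.25 in cKO and 1.39, 1.38 and 1.37 in WT.

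**Figure D3:**
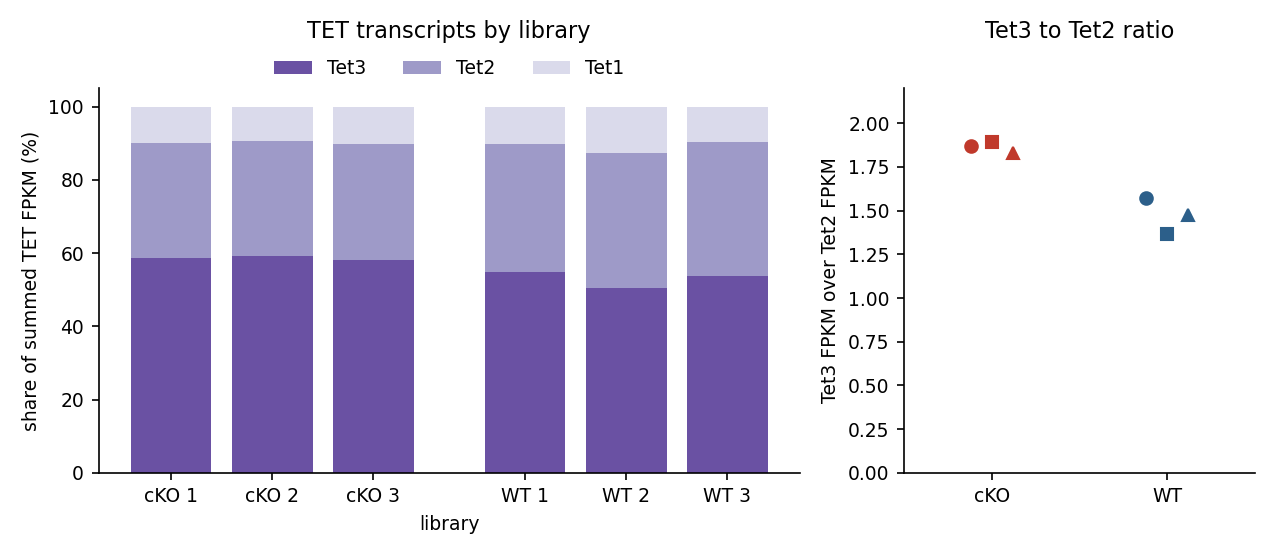
Share of each TET gene in the summed TET FPKM of a library (percent) and the ratio of Tet3 to Tet2, with cKO left of WT, 1 stacked bar per library for the shares and 1 point per library for the ratio. The 3 cKO libraries lie at ratios of 1.83 to 1.89 and the 3 WT libraries at 1.36 to 1.57.

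Ordered by mean FPKM over all 6 libraries, Uhrf1 came first at 23.0 ± 4.13, then Dnmt3a at 20.8 ± 1.31, Dnmt1 at 18.4 ± 1.67 and Tet3 at 15.9 ± 1.08 (SD, n = 6). Tet2 followed at 9.67 ± 0.980, Tet1 at 2.95 ± 0.355 and Dnmt3b at 2.73 ± 0.310 (SD, n = 6), with Dnmt3l last. Among tested genes, Uhrf1 stood at the percentile 85.8, Tet2 at 61.0 and Dnmt3b at 19.3. Neighbours from Uhrf1 to Tet3 overlapped in their ranges, as did Tet1 and Dnmt3b, each the higher of both in 3 of 6 libraries. Dnmt3a exceeded Dnmt1 in 6 of 6 libraries although their ranges overlapped, and Uhrf1 exceeded Dnmt3a in 4 of 6. Tet3 and Tet2, Tet2 and Tet1, and Dnmt3b and Dnmt3l did not overlap. FPKM is set per length of transcript, and the length the authors used for each gene is not given.

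Uhrf1 and Tet1 had the widest ranges over the 6 libraries among tested members, 0.67 and 0.34 on the log2(FPKM + 1) scale. The genes whose profile lay closest to Uhrf1, by root mean square difference of centred log2 values over 6 libraries, were Ctnna2 (0.0484), Arhgap24 (0.0615) and Srpx2 (0.0656), where the median of all candidate genes was 0.272. Closest to Tet1 were Cep95 (0.0268), Bicd1 (0.0278) and Abca5 (0.0350), where the median was 0.223. With 6 libraries and 11958 candidate genes, close profiles are a description and say nothing of the genes' roles.

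Other genes tied to DNA methylation were taken from 8 lists of 82 genes, of which 74 were tested. The last list holds germ line genes, which are not part of the methylation machinery. None of the 74 passed (limma, adjusted p under 0.05). At an unadjusted p under 0.05, 11 were higher in cKO, against 9.89% of all tested genes, and 1 was lower, against 4.26%. Of these 11, 9 belong to the list of germ line genes described last, and the rest, from the lists of the machinery, were Kdm1b and Neil2. After median-of-ratios scaling 3 passed, all 3 higher in cKO, against 0.764% of all genes, and all 3 belong to the list of germ line genes. Counts of positive genes below stand beside all tested genes, of which 34.8% were negative as deposited and 50% after scaling. Groups as deposited did not overlap for 22.6% of all tested genes, 15.5% with cKO above WT and 7.03% with cKO below. The 3 genes named from each list were picked for their small p, which favours groups that do not overlap. The median of all tested genes was 0.077 as deposited and 0.00035 after scaling.

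Among 8 partners of maintenance 0 passed, 7 had a positive log2 fold change and the median was 0.17, against 5 positive and a median of 0.090 after scaling. Hdac2, a histone deacetylase that binds DNMT1, had 45.7, 36.8 and 29.9 FPKM in cKO and 25.5, 32.2 and 28.0 FPKM in WT (log2 fold change 0.37, limma adjusted p = 0.374). Its groups overlapped through cKO replicate 3. Usp7, a deubiquitinase that stabilises UHRF1 and DNMT1, had 30.0, 25.8 and 26.9 FPKM in cKO and 24.3, 23.8 and 23.0 FPKM in WT, groups that did not overlap (0.21, limma adjusted p = 0.400). Uhrf2, the paralog of Uhrf1, had 6.12, 6.87 and 7.70 FPKM in cKO and 7.93, 8.66 and 7.69 FPKM in WT, overlapping by a narrow margin (-0.21, limma adjusted p = 0.424).

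Of 11 tested partners of de novo methylation and chromatin factors 0 passed, 8 were positive and the median was 0.063, against 4 positive and a median of -0.021 after scaling. Kdm1b, the H3K4 demethylase needed for imprint establishment in mouse oocytes, had 43.7, 31.8 and 29.6 FPKM in cKO and 23.5, 26.3 and 23.3 FPKM in WT. Every cKO library lay above every WT library, with a log2 difference of 0.49 (95% interval 0.13 to 0.85) that did not pass (limma adjusted p = 0.244, or 0.0881 after scaling). Smchd1, a chromatin protein of the inactive X chromosome, had a log2 fold change of 0.24 (limma adjusted p = 0.465), and Suv39h1, an H3K9 methyltransferase, one of 0.16 (limma adjusted p = 0.628).

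Of 6 tested genes that protect methylation at oocyte and imprinted sites 0 passed, 4 were positive and the median was 0.064, against 3 positive and a median of -0.019 after scaling. Zfp445, a zinc finger protein that guards imprints, had 15.1, 14.4 and 16.7 FPKM in cKO and 18.8, 19.1 and 17.2 FPKM in WT. Its groups did not overlap, with cKO below WT (-0.24, limma adjusted p = 0.347). Dppa3, an oocyte protein that restrains UHRF1, had 50.8, 39.6 and 31.5 FPKM in cKO and 29.8, 36.1 and 33.5 FPKM in WT, and its groups overlapped (0.27, limma adjusted p = 0.513). Leaving out cKO replicate 1 gave 0.096, and leaving out cKO replicate 3 gave 0.43. Setdb1, an H3K9 methyltransferase, had a log2 fold change of 0.12.

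Among 8 methyl-CpG readers 0 passed, 5 were positive and the median was 0.055, against 2 positive and a median of -0.027 after scaling. Zbtb33, which encodes the reader Kaiso, had a log2 fold change of 0.23 (limma adjusted p = 0.385), Mbd1 one of -0.20 (limma adjusted p = 0.388) and Zbtb4 one of -0.094. Mbd1 had 9.70, 8.55 and 9.93 FPKM in cKO and 11.1, 10.9 and 10.7 FPKM in WT, with every cKO library below every WT library. Of 6 tested partners of the TET enzymes 0 passed, 3 were positive and the median was 0.00055, against 1 positive and a median of -0.079 after scaling. Wt1, a transcription factor that binds TET2 and also marks granulosa cells, had 96.7, 85.4 and 93.0 FPKM in cKO and 106.1, 108.7 and 113.0 FPKM in WT. These groups did not overlap (-0.25, limma adjusted p = 0.393), whereas the summed FPKM of the granulosa cell markers, Wt1 included, did, at 345 to 424 in cKO and 366 to 369 in WT. Of these markers 9 were tested and 0 passed, and they went both ways, with 4 positive and 5 negative. Gata4, a transcription factor and the other abundant one, had a log2 difference of 0.17. Groups did not overlap for Foxl2 and Kitl, with cKO above WT, nor for Wt1, Nr2f2 and Rspo1, with cKO below WT. Of all tested genes, 15.5% and 7.03% had such groups. After scaling Nr2f2 and Rspo1 passed as lower in cKO (limma adjusted p = 0.0419 and 0.0253). Cxxc5, a CXXC-domain protein, had a log2 fold change of 0.20, and Ogt, the O-GlcNAc transferase that binds TET proteins, one of 0.077.

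Of 15 tested genes of base excision and deamination 0 passed, 10 were positive and the median was 0.16 (9 and 0.093 after scaling). Neil2, a DNA glycosylase, had 7.18, 5.497 and 5.58 FPKM in cKO and 4.998, 2.81 and 3.38 FPKM in WT, with every cKO library above every WT library (0.60, limma adjusted p = 0.225). Apex1, the endonuclease that cuts abasic sites, had 33.2, 26.5 and 24.05 FPKM in cKO and 22.0, 23.8 and 20.5 FPKM in WT (0.32, limma adjusted p = 0.354). Its groups stood apart by a narrow margin. Ung, the uracil glycosylase, had a log2 fold change of 0.32 (limma adjusted p = 0.439), and of 0.12 without cKO replicate 1. Apex1 had 0.19 without that library. Of 8 tested genes of methyl donor supply 0 passed, 6 were positive and the median was 0.13 (5 and 0.062 after scaling). Mtr, methionine synthase, had 13.5, 13.2 and 13.3 FPKM in cKO and 15.9, 15.5 and 14.7 FPKM in WT, groups that did not overlap (-0.19, limma adjusted p = 0.378). Mtrr, the reductase that keeps MTR active, had a log2 fold change of 0.34 (limma adjusted p = 0.365), and Mat2b, the regulatory subunit of methionine adenosyltransferase, one of 0.33 (limma adjusted p = 0.429).

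The last list held 12 germ line genes whose promoters are known to be silenced by methylation in somatic cells. As deposited 0 of 12 passed, 11 were positive and the median was 0.72, against 0.077 over all genes. Every cKO library lay above every WT library for 8 of 12, against 15.5% of all genes. The list was chosen with earlier results of these data known, so its counts and median are a description and no test. Hormad1, a protein of the meiotic chromosome axis, had 5.45, 4.63 and 4.02 FPKM in cKO and 1.601, 2.10 and 1.003 FPKM in WT (1.17, limma adjusted p = 0.0650, or 0.0254 after median-of-ratios scaling). Slc25a31, a mitochondrial carrier of germ cells, had 17.2, 11.97 and 9.23 FPKM in cKO and 5.48, 5.66 and 5.22 FPKM in WT (1.06, limma adjusted p = 0.0899, or 0.0223 after scaling). Dazl, a germ cell RNA-binding protein, had 39.0, 27.6 and 16.8 FPKM in cKO and 9.65, 11.97 and 9.34 FPKM in WT (1.28, limma adjusted p = 0.127, or 0.0430 after scaling). In all 3 genes cKO replicate 1 was highest and cKO replicate 3 lowest of the cKO libraries. Without cKO replicate 3, Slc25a31 and Dazl passed on the deposited scale (limma adjusted p = 0.0379 and 0.0378), and without cKO replicate 1 Slc25a31 did (limma adjusted p = 0.0466).

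Germ cell markers were set beside this list. Of 10 such markers 8 were tested, 0 passed and 7 were positive, with a median of 0.68. After median-of-ratios scaling 3 of them passed, all higher in cKO, against 0.764% of all tested genes. They were Tex15, a germ cell gene of meiosis (limma adjusted p = 0.0155), Dnd1, a germ cell RNA-binding protein (limma adjusted p = 0.0254), and Dazl. The markers' summed FPKM ran from 73.4 to 134.5 in cKO and from 53.2 to 60.2 in WT, with Dazl and Tex15 the most abundant. Stra8 was listed at 0 in all libraries. The markers also on the list of methylation-sensitive genes were Dazl, Mael and Ddx4, with log2 fold changes of 1.28, 0.60 and -0.069. The part of germ cell number in these values was not tested, and promoter methylation was not measured.

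**Figure D4:**
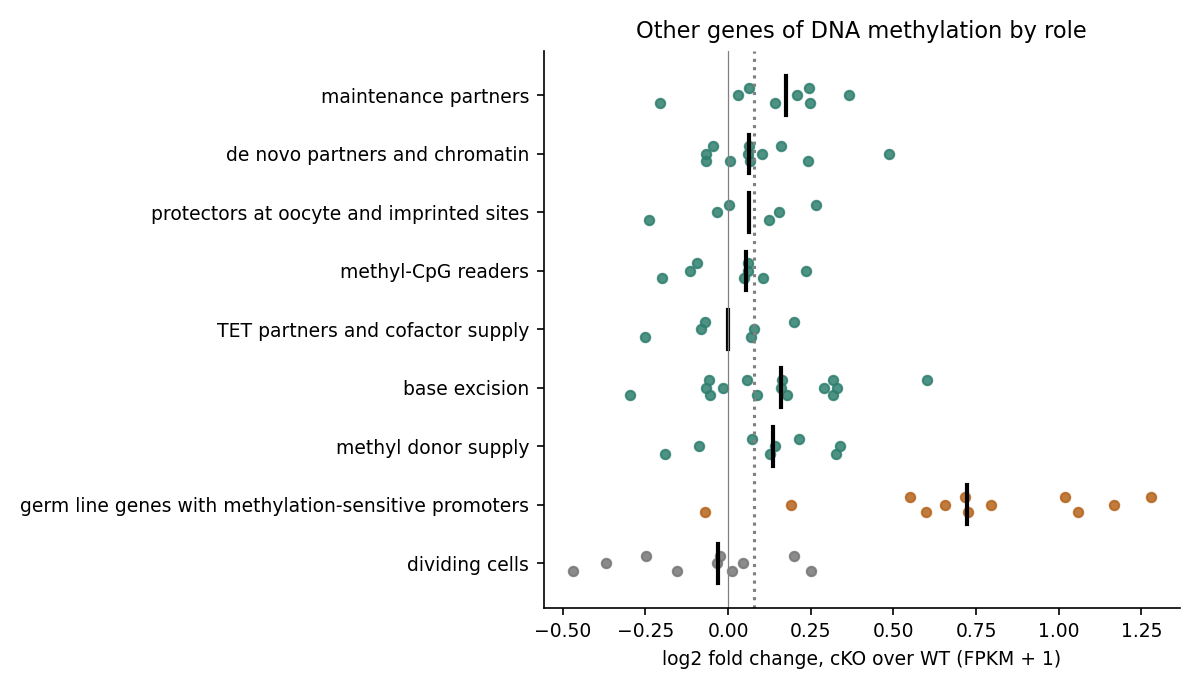
Log2 difference of cKO against WT for each tested gene of the 8 lists and of the dividing cell markers, 1 point per gene, with a bar at each list's median and a dotted line at the median of all tested genes (0.077). The list of germ line genes has a median of 0.72, and the medians of the other 7 lists, those of the machinery, lie between 0.00055 and 0.17.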

How the data were processed

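Whole-ovary RNA sequencing of 3 cKO and 3 WT libraries was analysed from the authors' deposited table of FPKM values, with 1 column per sample. The submitters' processing notes name mm10, STAR 2.7.11a, HISAT2 2.2.1 and featureCounts 2.0.6. Their roles, the program that computed FPKM and the annotation are not given in the sources used here. Genes averaging 1 FPKM or more over all libraries were compared on log2(FPKM + 1) with limma 3.58.1 in R 4.3.3 (intensity trend, two-sided, Benjamini-Hochberg adjustment over 12442 genes, called under 0.05), tested on simulated data. The simulation drew each gene independently and held no shift of a whole library like that of cKO replicate 1, so it does not cover that case. A log2 difference on this scale understates the change of low genes. FPKM carries no counts, so depth was estimated from its smallest steps, and 62.7% to 68.8% of low values lay within 0.1 of a whole fragment. Estimated fragments are approximate, assume the longest transcript and cover counting error only.

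The members were given by symbol, and the lists were chosen with earlier results of these data known. Named were all members, Hnrnpl, the 3 genes of each list with the smallest p, the 2 most abundant markers of a list set beside a result, some markers that passed a test or whose groups did not overlap (beyond the rule, chosen after their values were seen), and the 3 nearest profiles of the 2 most variable members. Settings were varied one at a time: the pseudocount, the filter, the scaling, the trend, weights per library, the replicate number as a block, and each library omitted in turn. Correcting for length and GC was an alternative chosen after seeing the data.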

Additional observations from a re-analysis of the deposited data

How the results depend on the processing

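The count of called genes, 15, depended on the setting. It was 34 with a pseudocount of 0.1 FPKM, 5 without a filter, 23 with a filter at 5 FPKM, 161 after median-of-ratios scaling, 233 after quantile normalization, 149 after TPM rescaling, 5 without an intensity trend, 172 with weights per library, 256 with correction for length and GC (chosen after seeing the data) and 2 to 89 when 1 library was left out. It was 89 without cKO replicate 1, 4 without cKO replicate 2, 74 without cKO replicate 3, 2 without WT replicate 1 or 2 and 6 without WT replicate 3. The cause was not tested. Among members 0 passed except for Uhrf1, which made 1 after quantile normalization and 1 after TPM rescaling, and 0 passed when any library was left out. Among the 74 genes of the lists 0 passed as deposited and 3 after median-of-ratios scaling, TPM rescaling, weights per library, or correction for length and GC, each time Dazl, Hormad1 and Slc25a31. Quantile normalization gave 4, with Tdrd1 as the other. Leaving out 1 library gave 0 to 2, which were Slc25a31 without cKO replicate 1, and Slc25a31 and Dazl without cKO replicate 3.

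Of 507 values of 32 named genes under alternatives, 474 kept their direction and their side of the threshold, 20 passed it and 13 changed sign. The filters, the fit without an intensity trend and the block by replicate number cannot change a log2 difference, so its direction there was fixed. Dnmt3b was -0.030 with median-of-ratios scaling, -0.15 with TPM rescaling, -0.024 without cKO replicate 2, -0.020 without WT replicate 3 (-0.024 to 0.12 when any 1 library was left out) and -0.0073 with the length and GC correction. Tet3 was -0.018 with quantile normalization and -0.11 with TPM rescaling. Suv39h1 was -0.034 and Setdb1 -0.073 with TPM rescaling, and Suv39h1 was -0.00096 without cKO replicate 1 (to 0.28 when another library was left out). Ogt was -0.0080 with median-of-ratios scaling, -0.046 with quantile normalization and -0.13 with TPM rescaling. Without cKO replicate 1 the values of Hdac2, Kdm1b, Smchd1, Mat2b and Mtrr were 0.22, 0.32, 0.11, 0.15 and 0.21. None of the genes that changed sign was called under any of these settings. Dnmt3b, Tet1, Neil2, Mtrr and Hormad1 average under 5 FPKM and have no value with the filter at 5 FPKM.

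Same-numbered libraries of both groups deviated from their group means with correlations of -0.011, 0.039 and 0.068 across genes. Differently numbered libraries had correlations from -0.066 to 0.028. With 3 libraries per group these values cannot tell whether the libraries were paired. With the replicate number as a block 2 genes were called, and 0 members and 0 list genes. With 3 libraries per group and the depth of amplified cDNA libraries, differences of the size seen for the members have intervals that mostly include 0.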
